A study of Homo sapiens with 12 samples.

Results

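The comparison of S545A with control vector covered 6 of the 12 RNA-seq libraries of the series, 3 of each group, chosen by their genotype labels and used with those labels as given. All were made from HEYA8, an established ovarian cancer cell line that the labels call high grade serous, kept in a resting state in RPMI-1640 with serum. S545A cells carried human betaglycan with serine 545 changed to alanine, delivered in the lentiviral backbone pHIV-dTomato and sorted on dTomato, while the control cells are labelled only as control vector. The paper does not state whether the libraries of a group came from 1 infected and sorted population or from separate derivations of the line. The third S545A library is titled S545S but has the genotype S545A. Every one of the 56269 genes in the table was eligible, and 16069 passed the filter on low counts.

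Betaglycan, the product of TGFBR3, is a transmembrane proteoglycan and co-receptor that binds TGF-β, inhibin and other ligands and hands TGF-β to the signaling receptors TGFBR2 and TGFBR1. Its ectodomain carries glycosaminoglycan (GAG) chains and can be released from the cell surface by proteolysis. In this construct set, losing the site at serine 545 leaves the chain at serine 534, and the study calls the product HS-BG for its heparan sulfate chain. The question put to the RNA was whether cells expressing this single-chain form differ in transcripts from control cells, with TIMP3, a secreted inhibitor of metalloproteases, as the gene the study followed.

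The mutated site is shown on the reference coding strand of TGFBR3 because it is the only designed difference between S545A and full-length betaglycan with both sites. The stretch below belongs to the coding sequence of ENST00000212355.8, a transcript with 17 exons, and lies in exon 11 at chr1:91716622-91716690 of GRCh38 on the minus strand, and spans residues 529 to 551. Capitals mark the serine codons 534 and 545, and both are followed by a glycine codon, as at many GAG attachment sites. The codon of serine 545 lies at chr1:91716640-91716642. The counts are per gene, so the mutated codon itself cannot be seen in them.
TGFBR3 residues 529 to 551: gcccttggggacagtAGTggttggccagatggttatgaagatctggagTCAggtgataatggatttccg

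TGFBR3 was examined first, as the gene of the construct. Levels are given throughout as CPM, each library's counts divided by its total with TMM scaling, in the order of libraries 1, 2 and 3. TGFBR3 stood at 574, 522 and 520 CPM in S545A and at 15.9, 259 and 259 CPM in the libraries labelled control vector. All 3 S545A libraries lay above all 3 control libraries, but control libraries 2 and 3 lay far above control library 1, which goes against the label of a vector without betaglycan. The log2 ratio of S545A to the control library of the same number was 5.13, 1.01 and 1.00 (on CPM + 0.5). Over the 3 libraries a group the log2 fold change was 1.60 ± 0.99 (SE, edgeR unadjusted p = 0.13). An exact permutation test of the CPM values, two-sided, gave p = 0.1, the smallest that 3 against 3 can give. Against control library 1 alone the log2 fold change was 5.08, a value with no test, since control libraries 2 and 3 were left out for their TGFBR3 level. In the other groups TGFBR3 ranged from 413 to 476 CPM in S534A and from 20.3 to 260 CPM in ∆GAG-BG, which spans the low and high levels seen in the control libraries. Every value below is therefore a difference from the libraries labelled control vector, and for the main groups of genes the values against control library 1 alone are given as well. COL3A1, a fibrillar collagen gene, also separated control libraries 2 and 3, with 22 and 31 counts, from the other 4 libraries, which held 0 counts (at most 0.148 CPM by the limit of 3 counts in a library).

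The 6 libraries held 20338899 to 29267436 counts each. Libraries 2 and 3 of each group were near copies: the chi-square of their counts over genes, divided by its degrees of freedom, was 1.37 for S545A and 1.41 for control, still above sampling noise. Each library was counted separately, but this ratio cannot tell separate cultures from repeats of the same culture. Between library 1 and either of the others of its group the same ratio was 25.6 to 29.1. S545A 1 was closer to control 1 (8.32) than to its own group. Libraries with the same number departed from the averages of their groups in the same genes, and the numbers were taken as pairs on that correlation alone. It set library 1 apart but hardly told libraries 2 and 3 from each other. Same-numbered pairs of these gave 0.41 and 0.41, and crossed pairs 0.40 and 0.39. What sets library 1 apart is not given in the labels, which name no batch or day. Of the epithelial and ovarian markers, PAX8 stood at 209 to 281 CPM and KRT7, KRT8 and KRT18 at 560 to 1140 CPM in the 6 libraries, while CDH1 and MUC16 had 0 counts in all, and the mesenchymal marker VIM stood at 2623 to 2905 CPM. Of 17 markers of leukocytes, endothelium, fibroblasts and erythroid cells, 5 had 0 counts in all 6 libraries, and the summed level of 310 to 463 CPM in S545A and 341 to 427 CPM in control was nearly all CDH5, an endothelial cadherin, at 292 to 431 CPM. PTPRC and PECAM1 were below 1 CPM throughout. None of the tested markers passed an adjusted p of 0.05 in either fit.

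In the fit without pairs, no gene had an adjusted p under 0.05 among 16069 tested by edgeR, and 168 genes (1.05%) had an unadjusted p under 0.05, 111 higher (0.691%) and 57 lower (0.355%) in S545A. Quantile normalization turned that split to 95 higher and 98 lower. The 3 S545A values lay wholly above or below the 3 control values for 1417 genes (8.82%), 760 above (4.73%) and 657 below (4.09%). With the replicate number as a block in the 6 libraries, 397 of 15616 genes passed an adjusted p of 0.05 (2.54%), 124 higher (0.794%) and 273 lower (1.75%) in S545A. With library size as the only scaling the split was 150 higher and 201 lower. All 397 had the same sign in the 3 pairs, which 39.6% of all genes tested also had, and 2732 genes (17.5%) had an unadjusted p under 0.05 with the block. The differences were small: the median size was 0.24 on the log2 scale for the genes higher and 0.22 for those lower, and 33 of the 397 exceeded 0.5. Of the 397, only 22 had an unadjusted p under 0.05 without the block.

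The calls of the blocked fit depended on which libraries stood behind the spread. The block left 2 residual degrees of freedom and a biological coefficient of variation of 0.043, against 0.163 in the 12-library fit, and pairs 2 and 3 were near copies. A block fitted across all 12 libraries gave 0 calls (197 genes at an unadjusted p under 0.05). Leaving out the libraries numbered 2 gave 23 of 15836 genes tested, 11 higher and 12 lower. Leaving out those numbered 3 gave 42 of 15475, 15 higher and 27 lower. Leaving out those numbered 1 gave 1905 of 15546, 835 higher and 1070 lower. Counts of list members in those fits, given below, stand beside these totals, not beside the background shares of the 6-library fit. Summing libraries 2 and 3 within each group, so that 2 pairs remained, gave 281 calls, 229 of them among the 397. Calls named below are those of the blocked 6-library fit, and without the block each had an adjusted p of at least 0.9999. Apart from DDIT3, NEAT1, HSP90AA1, MIR503HG and MCM4, which the rule for named genes took from that fit, and genes the rule took from the fit without pairs, the called genes were chosen after their values were seen.

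**Figure D1:**
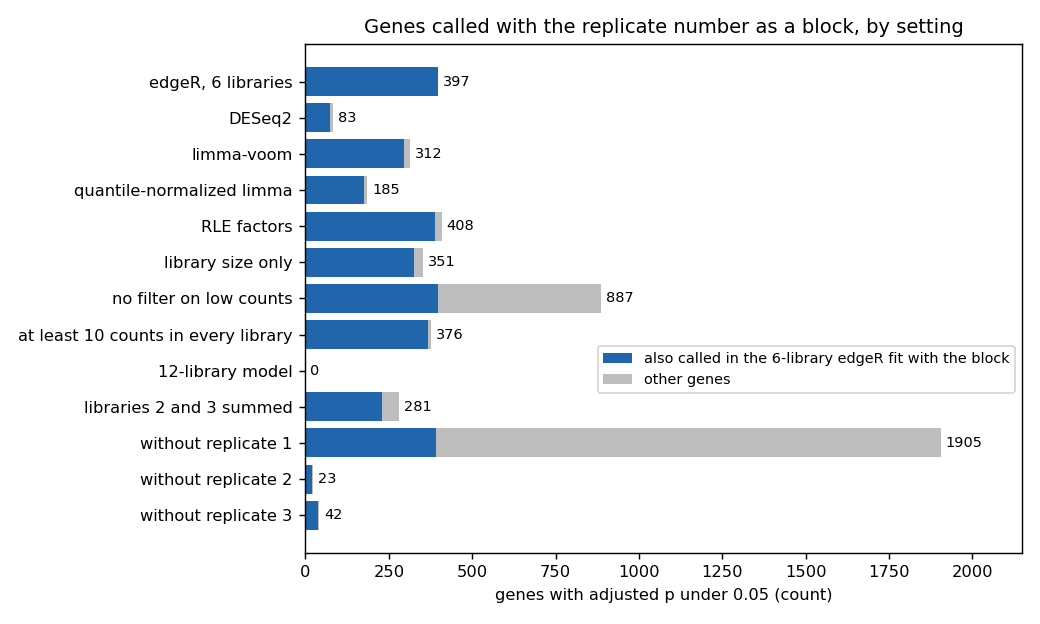
Genes with an adjusted p under 0.05 with the replicate number as a block (x axis, count), 1 bar for each setting, with genes shared with the 6-library edgeR fit in blue and others in grey. The count was 397 in that fit, 0 in the 12-library model and 1905 without the libraries numbered 1.

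The receptors of the TGF-β family showed little difference apart from TGFBR3. TGFBR2, the ligand-binding signaling receptor, stood at 607, 527 and 525 CPM in S545A and 621, 512 and 511 CPM in control (log2 fold change 0.01 ± 0.14, SE, unadjusted p = 0.93). TGFBR1, its kinase partner, stood at 47.6, 44.6 and 46.2 CPM against 45.5, 46.8 and 45.4 CPM (log2 fold change 0.01 ± 0.08, unadjusted p = 0.92). For both the groups overlapped, and the sign of the fitted change turned under other settings. Of the 13 receptor genes tested, 0 passed in either fit, with a median log2 fold change of 0.01. At an unadjusted p under 0.05, 0 receptor genes passed by edgeR with or without the block.

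Among ligands and latent binding proteins, 2 of 16 genes tested were higher with the block (background 0.794%) and 2 lower (background 1.75%), and 0 higher and 1 lower passed without the libraries numbered 2 or without those numbered 3. LTBP1, which tethers latent TGF-β to the matrix, was lower, at 17.4, 9.06 and 9.81 CPM in S545A against 25.5, 15.1 and 14.8 CPM (0.652-fold, adjusted p = 0.00065), as was GDF11 (0.795-fold, adjusted p = 0.040). LTBP2, a relative of LTBP1 that sits on elastic fibers, was higher at 125, 125 and 122 CPM against 103, 114 and 113 CPM, with no overlap (1.13-fold, adjusted p = 0.028). Its call was lost with the block in DESeq2 (adjusted p = 0.24), limma-voom (0.059), limma on quantile-normalized values (0.062), and without the libraries numbered 2 (0.25) or those numbered 3 (0.13). FSTL3, a secreted antagonist of activin, was higher as well (1.22-fold, adjusted p = 0.013). TGFB1, the main ligand transcript here, stood at 137, 124 and 129 CPM against 141, 125 and 126 CPM, and TGFB2 was below 1 CPM in all 6 libraries. TGFB1 shares exon sequence with HNRNPUL1 in the annotation, so its reads cannot be fully told apart. Its groups overlapped and its log2 fold change was within 0.01 of 0 in the fit without pairs, on either side of 0 depending on the scaling.

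The paper reports more TIMP3 RNA in ∆GAG-BG cells than in S534A or S545A cells, and follows TIMP3 by qRT-PCR, western blot and knockdown. That comparison is not the one made here. For S545A against control vector, TIMP3 did not pass a test over the 3 libraries a group. It stood at 30.1, 35.7 and 39.9 CPM in S545A and at 38.1, 30.2 and 27.1 CPM in control (log2 fold change 0.15 ± 0.21, SE, unadjusted p = 0.50, exact permutation p = 0.5). The groups overlapped, and the direction differed by pair: S545A library 1 was below control library 1, and S545A libraries 2 and 3 were above theirs. Without control libraries 2 and 3 the log2 fold change was -0.11. With the block it was 0.15 (adjusted p = 0.84), and it passed only when the libraries numbered 1 were left out (0.42, adjusted p = 3.79e-11 with 1 residual degree of freedom) and was -0.06 without those numbered 3. TIMP1 stood at 59.4, 52.4 and 51.9 CPM against 58.4, 52.9 and 57.5 CPM, and TIMP2 at 445, 555 and 549 CPM against 407, 546 and 543 CPM. Neither inhibitor passed a test. Among 32 metalloproteases and inhibitors tested with the block, 0 were higher and 1 was lower (background 0.794% and 1.75%). The gene called lower was MMP16, a membrane-anchored protease, at 58.0, 32.5 and 32.0 CPM in S545A against 76.4, 40.0 and 38.6 CPM (0.794-fold, adjusted p = 0.0022). MMP14, another membrane-anchored protease, stood at 411 to 438 CPM in all 6 libraries.

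**Figure D2:**
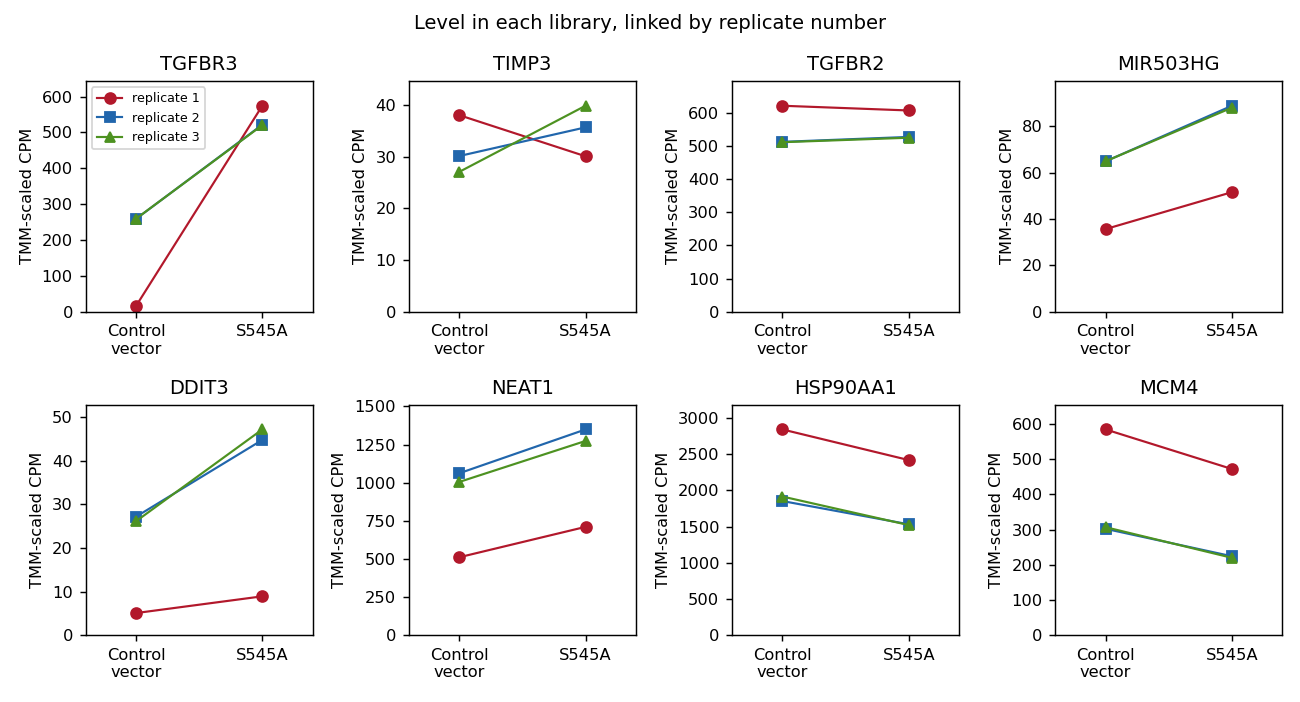
TMM-scaled CPM (y axis, from 0) of 8 genes in each control vector and S545A library, with same-numbered libraries joined by a line. TGFBR3 was 15.9 CPM in control library 1 and 259 CPM in control libraries 2 and 3, TIMP3 crossed between pairs, and DDIT3, NEAT1, MIR503HG, HSP90AA1 and MCM4 moved one way in each pair while library 1 sat apart from libraries 2 and 3.

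The calls among TGF-β targets and matrix genes were few and depended on the libraries used. The target JUNB, an AP-1 subunit, stood at 34.8, 32.7 and 30.2 CPM in S545A against 28.8, 27.7 and 26.3 CPM in control, with no overlap (log2 fold change 0.24, adjusted p = 0.032), and LTBP2, described above, is also counted as a target. Of the 27 targets tested with the block, 0 were called lower, and the median log2 fold change was 0.06. Without the libraries numbered 2, without those numbered 3 and in the 12-library block 0 targets passed. Without those numbered 1, 11 were higher and 3 lower, where 835 of all 15546 genes were higher and 1070 lower. LAMB3, which encodes a laminin chain of epithelial basement membranes, was at 776, 922 and 928 CPM against 630, 809 and 795 CPM (1.18-fold, adjusted p = 0.00075), and ITGA3, a subunit of a laminin receptor, was 1.11-fold higher (adjusted p = 0.0036). COL6A1, a chain of collagen VI, was lower (0.869-fold, adjusted p = 0.013) and was the 1 gene called lower among 31 collagens, laminins and integrins (background 1.75%). With the block in DESeq2 or in limma on quantile-normalized values, 0 of that list were called lower. Without the libraries numbered 2, 0 were called in either direction, and without those numbered 3, 1 was called higher and 0 lower. TGIF1, a transcriptional co-repressor that binds SMADs, was higher (1.18-fold, adjusted p = 0.0064). It was the only call among 18 SMADs and regulators (background 0.794% higher and 1.75% lower). With the block in DESeq2, without the libraries numbered 2 or those numbered 3, and in the 12-library block, that list held 0 calls.

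Among 19 AP-1 and immediate early genes, 3 were higher with the block (background 0.794%) and 0 lower. The count was 1 without the libraries numbered 2 or those numbered 3, and 0 in the 12-library block. It was 11 without the libraries numbered 1, where 835 of all 15546 genes were called higher. KLF4, a zinc finger transcription factor, stood at 63.7, 105 and 107 CPM against 48.0, 85.3 and 83.5 CPM (1.28-fold, adjusted p = 0.00029), and the other calls were JUNB and DUSP1, a phosphatase of MAP kinases. Of 19 FGF and ERK targets, PHLDA1 and EPHA2 were higher and 0 were lower, and neither passed without the libraries numbered 2 or those numbered 3. DUSP1 and KLF4 differed more between libraries 1 and 2 of the same group than between S545A and control.

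In the integrated stress response, 5 of 23 genes tested were higher in S545A with the block and 18 did not pass. This is the program in which phosphorylation of eIF2α slows translation while ATF4 is made and activates genes of amino acid supply and cell fate. DDIT3, which encodes the transcription factor CHOP, stood at 8.95, 44.8 and 47.2 CPM in S545A and 5.12, 27.2 and 26.2 CPM in control. Each S545A library was above the control library of its number, yet S545A library 1 was below control libraries 2 and 3, so the groups overlapped. In S534A and ∆GAG-BG cells, DDIT3 ranged from 7.25 to 14.4 CPM and from 6.92 to 208 CPM. The S545A values thus lay within the spread of the other libraries of the line. The change was 1.73-fold with the block (log2 0.79 ± 0.06, SE, adjusted p = 3.37e-05) and had an unadjusted p of 0.50 without it. DDIT3 lies on chromosome 12 of GRCh38 at 57516588 to 57520517 on the minus strand, and its exons overlap MARS in the annotation.

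Against the 5 called higher (background 0.794%), 0 were lower. ATF4 stood at 615, 642 and 657 CPM against 537, 575 and 577 CPM, without overlap (1.13-fold, adjusted p = 0.0042). Its adjusted p was 0.19 without the libraries numbered 2 and 0.15 without those numbered 3. PPP1R15A, which recruits the phosphatase that reverses eIF2α phosphorylation, was 1.24-fold higher (adjusted p = 0.00091). ALDH1L2, an enzyme of mitochondrial folate metabolism, was 1.41-fold higher (adjusted p = 0.041). The ALDH1L2 call was lost with the block in limma-voom (adjusted p = 0.069) and limma on quantile-normalized values (0.052). It was also lost without the libraries numbered 2 (0.22) or those numbered 3 (0.089). DDIT4, an inhibitor of mTORC1 signaling, differed most, at 33.0, 62.7 and 65.5 CPM against 11.5, 33.4 and 32.3 CPM (2.16-fold, adjusted p = 0.030). Without the libraries numbered 3 its adjusted p was 0.15. DDIT4 ranged from 26.4 to 29.6 CPM in S534A and from 25.0 to 96.3 CPM in ∆GAG-BG. The list's median log2 fold change was 0.30, against 0.00 over all genes tested. Against control library 1 alone, 23 of 23 members were higher in S545A library 1 (median log2 ratio 0.59). In pairs 2 and 3, 19 and 20 of 23 were higher, with medians of 0.16 and 0.19. The count of calls was 3 without the libraries numbered 2, 3 without those numbered 3, and 0 in the 12-library block. It was 17 without the libraries numbered 1, where 835 of all 15546 genes were called higher.

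Of 24 DNA replication genes tested, 16 were lower in S545A with the block (background 1.75%), 0 were higher and 8 did not pass. All 24 had a negative log2 fold change, with a median of -0.33. MCM4, a subunit of the replicative helicase, stood at 472, 225 and 220 CPM in S545A and 585, 302 and 307 CPM in control (0.754-fold, log2 -0.41 ± 0.04, SE, adjusted p = 5.82e-05). MCM6, of the same helicase, stood at 148, 73.0 and 71.4 CPM against 179, 98.1 and 97.5 CPM (0.769-fold). The subunits MCM3 and MCM5 were lower too (0.791- and 0.854-fold). PCNA, the sliding clamp of the DNA polymerases, stood at 160, 93.1 and 91.8 CPM against 192, 127 and 129 CPM (0.758-fold, adjusted p = 0.00069). CDC6, which loads the helicase at origins, was lowest in ratio, at 81.8, 39.1 and 38.6 CPM against 99.3, 59.8 and 61.2 CPM (0.706-fold, adjusted p = 0.036).

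For all 16 of these called genes the groups overlapped, and library 1 of both groups held more of each transcript than libraries 2 and 3. The subunits RRM1 and RRM2 of ribonucleotide reductase, the replication initiation factors CDC45, GINS2 and MCM10, the flap endonuclease gene FEN1, the polymerase α gene POLA1, cyclin E gene CCNE1, the transcription factor gene E2F1 and the DNA methylation cofactor gene UHRF1 made up the rest of the calls, at 0.718- to 0.887-fold. Of these, RRM1, GINS2 and FEN1 overlap other genes in the annotation. Against control library 1 alone, 20 of 24 members were lower in S545A library 1, with a median log2 ratio of -0.16, and 24 of 24 were lower in each of pairs 2 and 3, with medians of -0.35. The calls numbered 3 without the libraries numbered 2, 6 without those numbered 3, and 0 in the 12-library block. They numbered 21 without the libraries numbered 1, where 1070 of all 15546 genes were called lower. In S534A and ∆GAG-BG cells, MCM4 ranged from 375 to 622 CPM and from 189 to 485 CPM, so the S545A values lay within the spread of the other libraries of the line.

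**Figure D3:**
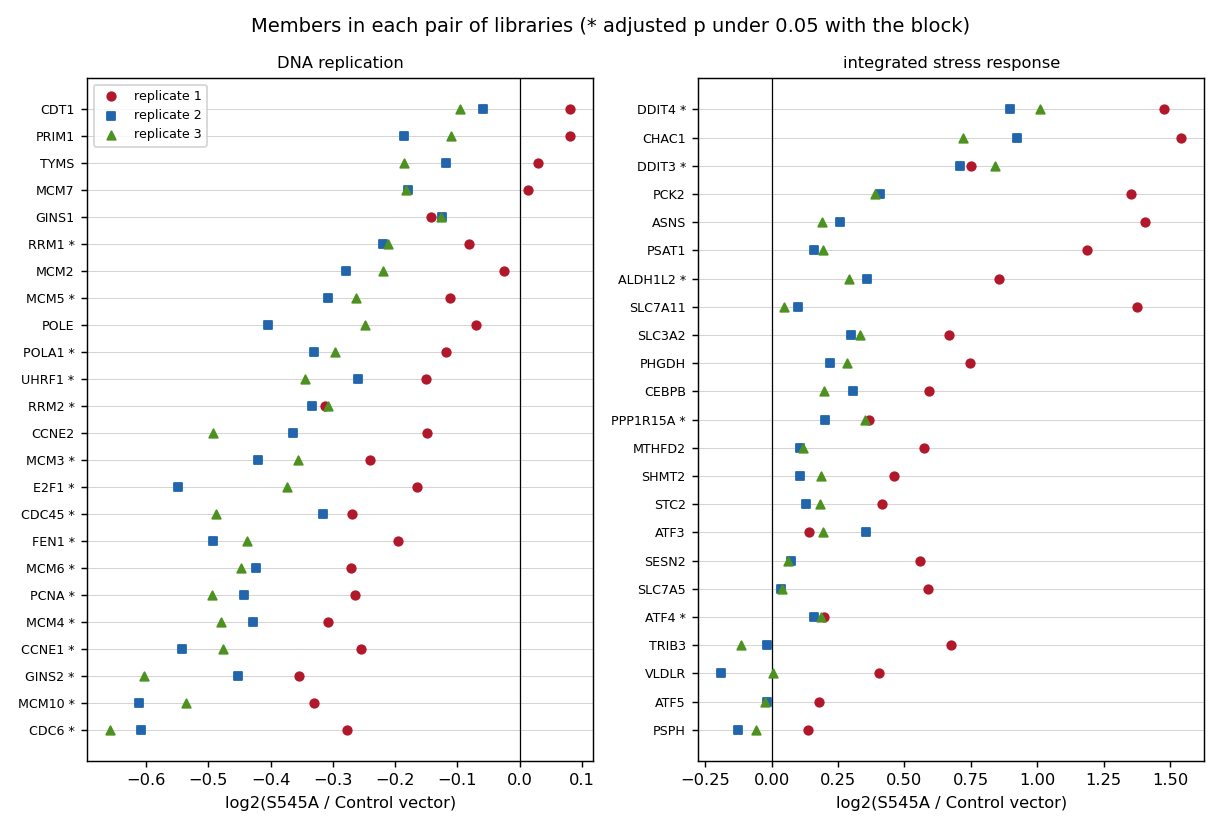
Log2 ratio of S545A to the control vector library of the same number (x axis, on CPM + 0.5) for each tested member of the DNA replication list (left, 24 genes) and the integrated stress response list (right, 23 genes), with asterisks for genes passing an adjusted p of 0.05 in the blocked fit. Replication genes lie mostly below 0 in each pair, and stress response genes lie mostly above 0, furthest in the pair of libraries numbered 1.

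Of 24 genes of mitosis, 5 were lower with the block (background 1.75%), 0 were higher and 19 did not pass, with a median log2 fold change of -0.10. MKI67, the proliferation marker Ki-67, stood at 628, 536 and 524 CPM against 717, 611 and 625 CPM (0.863-fold, adjusted p = 0.0015). CCNB1, which encodes cyclin B1, was lower without overlap, at 320, 291 and 290 CPM against 361, 321 and 321 CPM (0.898-fold, adjusted p = 0.017), and BUB1 likewise (0.892-fold). The other 2 calls were BUB1B, a kinase-like protein of the spindle checkpoint, and CDC20, an activator of the anaphase-promoting complex. With the libraries numbered 2 or those numbered 3 left out, 0 mitosis genes passed with the block.

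The promoters of replication genes are known to carry sites for E2F factors, so the windows from 250 bases before to 50 after the start were read from RefSeq (GRCh38.p14) and searched on both strands for 2 forms of the site, TTTCCCGC and TTTGGCGC, which do not overlap each other. Of the 24 replication genes, 21 had a window in the table, and 7 held TTTCCCGC (33.3%) and 6 held TTTGGCGC (28.6%). Over all 35116 windows the shares were 1.63% and 0.652%. For the 16 called genes, 14 had a window, and 4 held each form. The windows of 2 called genes with different forms are given below, with matches to either form in capitals. MCM6 held TTTGGCGC at 2 places and PCNA held the reverse complement of TTTCCCGC once. CCAAT, searched likewise, was in 16 of 21 replication windows (76.2%), 11 of 19 windows of the integrated stress response (57.9%) and 12 of 35 chaperone windows (34.3%), against 34.6% of all windows. The C/EBP-ATF site TGATGNAAT was in 0 of the 19 windows of the integrated stress response and in 0.991% of all windows. A match is a description of the letters, not evidence of binding in these cells.
MCM6 (chr2:135876394-135876693, minus strand): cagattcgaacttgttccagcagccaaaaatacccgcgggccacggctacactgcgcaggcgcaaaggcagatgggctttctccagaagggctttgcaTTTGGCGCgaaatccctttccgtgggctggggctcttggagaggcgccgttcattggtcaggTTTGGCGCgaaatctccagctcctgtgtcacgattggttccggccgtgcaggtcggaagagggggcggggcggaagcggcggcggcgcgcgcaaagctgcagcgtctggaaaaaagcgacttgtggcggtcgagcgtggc
PCNA (chr20:5126573-5126872, minus strand): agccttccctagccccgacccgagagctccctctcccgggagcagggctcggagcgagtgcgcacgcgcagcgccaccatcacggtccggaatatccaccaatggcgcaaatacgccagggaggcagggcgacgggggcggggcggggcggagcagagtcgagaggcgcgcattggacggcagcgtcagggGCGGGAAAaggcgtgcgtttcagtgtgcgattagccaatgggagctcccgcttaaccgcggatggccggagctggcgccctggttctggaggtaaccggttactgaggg

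Of 40 chaperones of the cytosol and mitochondria, a list added after values were seen, 18 were lower and 1 was higher with the block (background 1.75% and 0.794%), and 21 did not pass. These proteins fold newly made and damaged proteins with ATP, and most are under heat shock control. HSP90AA1, the inducible HSP90, stood at 2420, 1533 and 1522 CPM in S545A and 2842, 1854 and 1916 CPM in control (0.823-fold, log2 -0.28 ± 0.02, SE, adjusted p = 5.82e-05). Its exons overlap WDR20 in the annotation. HSPH1, of the HSP110 family, stood at 501, 294 and 296 CPM against 611, 349 and 359 CPM (0.827-fold, adjusted p = 0.00026). HSPD1 and HSPE1, the mitochondrial chaperonin and its partner, were lower together (0.867- and 0.807-fold), and they overlap each other in the annotation. The inducible HSP70 genes HSPA1A and HSPA1B, nearly identical copies whose reads can be split between them, were 0.708- and 0.704-fold at 6.18 to 18.4 CPM in S545A.

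The subunits TCP1, CCT2 and CCT6A of the cytosolic chaperonin TRiC, and the HSP90 partners STIP1, FKBP4 and PTGES3, were also lower, at 0.844- to 0.908-fold. DNAJB2, a co-chaperone, was the 1 gene called higher (1.21-fold, adjusted p = 0.028). In the pairs numbered 1, 2 and 3, 36, 37 and 35 of 40 members were lower, with median log2 ratios of -0.16, -0.11 and -0.14. The calls lower numbered 1 without the libraries numbered 2, 3 without those numbered 3, and 0 in the 12-library block. They numbered 25 without the libraries numbered 1, where 1070 of all 15546 genes were called lower.

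HSPA8, the constitutive HSP70, was at 2307, 1389 and 1447 CPM against 2599, 1492 and 1534 CPM (0.919-fold, adjusted p = 0.015). Its RefSeq promoter window is shown because it was one of 2 called chaperones, with DNAJA1, whose window held a full heat shock element, the blocks GAA, TTC and GAA each set apart by any 2 bases, searched on both strands. Of 35 list members with a window, 4 held it (11.4%), against 0.49% of all windows. Matches are in capitals.
HSPA8 (chr11:123062087-123062386, minus strand): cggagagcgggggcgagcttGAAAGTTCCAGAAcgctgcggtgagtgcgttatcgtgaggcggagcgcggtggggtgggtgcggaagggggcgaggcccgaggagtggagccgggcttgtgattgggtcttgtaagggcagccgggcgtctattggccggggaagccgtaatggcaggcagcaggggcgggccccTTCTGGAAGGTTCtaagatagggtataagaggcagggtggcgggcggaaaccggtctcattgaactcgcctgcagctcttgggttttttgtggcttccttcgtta

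The chaperones of the endoplasmic reticulum behaved differently between pairs. HSPA5, which encodes BiP, stood at 1273, 2596 and 2628 CPM in S545A and 1290, 3878 and 3906 CPM in control, so that pair 1 was level and S545A was lower in pairs 2 and 3. HSP90B1, the HSP90 of this compartment, gave 1017, 1180 and 1212 CPM against 999, 1559 and 1599 CPM. Of 21 members tested, 14 were higher in pair 1 (median log2 ratio 0.04), and 19 were lower in each of pairs 2 and 3 (medians -0.20 and -0.28). With the block 2 passed (background 1.75% lower), SDF2L1 (0.706-fold, adjusted p = 0.0053) and MANF (0.848-fold, adjusted p = 0.0085), both lower in each pair. Without the libraries numbered 1, 19 members passed lower and 1 higher, where 1070 of all 15546 genes passed lower and 835 higher. Without those numbered 2 or those numbered 3, 0 members passed. Control libraries 2 and 3 are also those with TGFBR3 at 259 CPM, and whether that has a part in the difference between pairs was not tested.

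**Figure D4:**
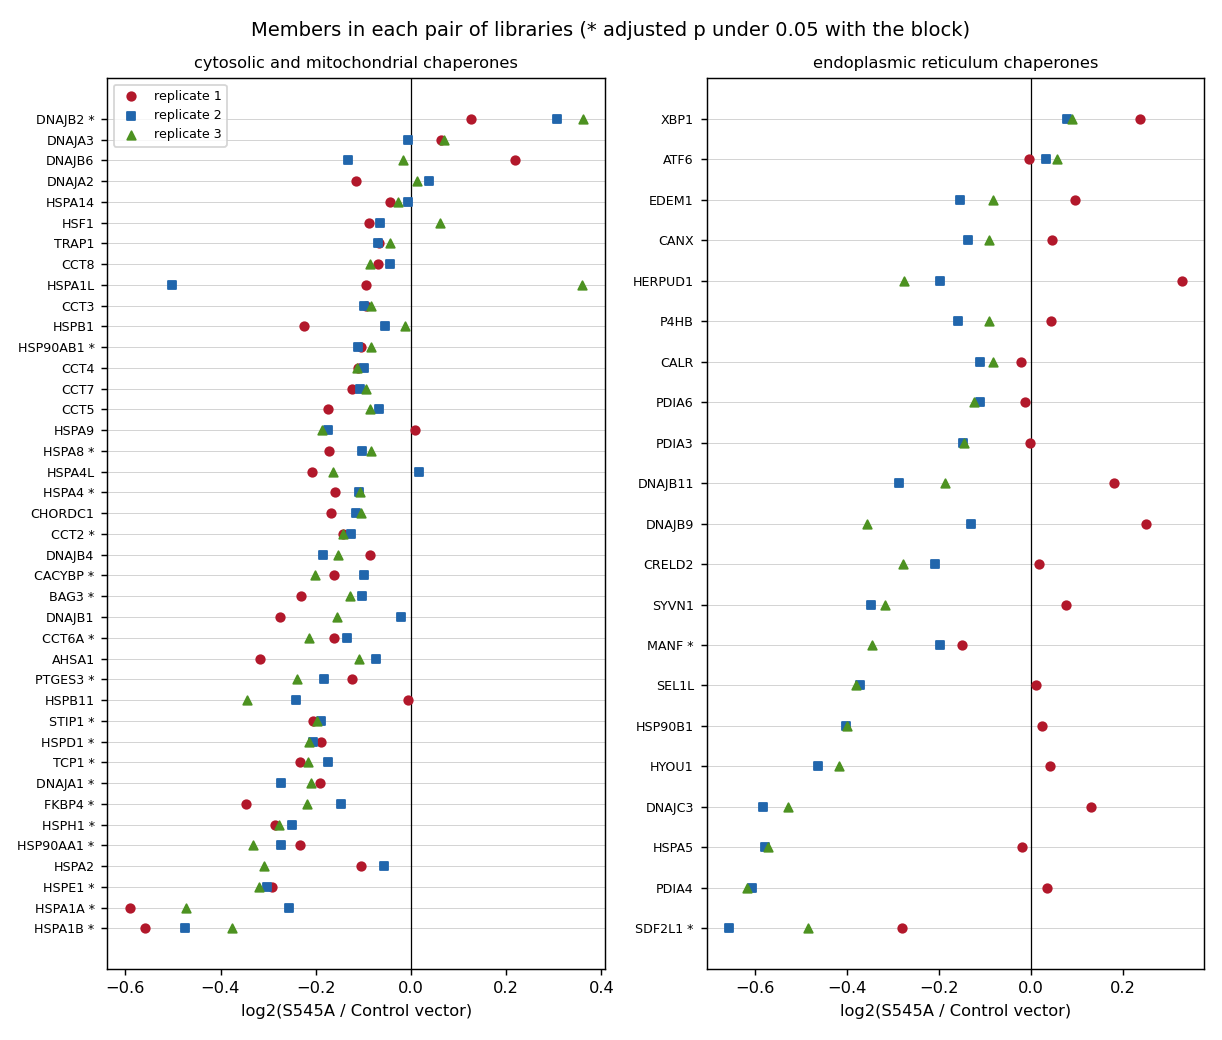
Log2 ratio of S545A to the control vector library of the same number (x axis, on CPM + 0.5) for 40 cytosolic and mitochondrial chaperones (left) and 21 endoplasmic reticulum chaperones (right), with asterisks for genes passing an adjusted p of 0.05 in the blocked fit. On the left the 3 pairs lie close together and mostly below 0, while on the right the pair of libraries numbered 1 lies near or above 0 and the others lie below.

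Tubulins, also a list added after values were seen, had 6 of 14 genes lower and 1 higher with the block (background 1.75% and 0.794%). TUBA1B, an abundant α-tubulin, stood at 471, 340 and 338 CPM against 564, 395 and 396 CPM (0.848-fold, adjusted p = 0.00078), and TUBB stood at 1240, 1046 and 1057 CPM against 1422, 1149 and 1166 CPM (0.894-fold, adjusted p = 0.0042). TUBA4A, TUBB4B, TUBB6 and the centrosomal TUBG1 were lower as well, at 0.763- to 0.889-fold. TUBE1 was the gene called higher (1.19-fold). Among the glycolysis and hypoxia genes, 5 of 25 were lower (background 1.75%) and 0 higher. Without the libraries numbered 1, 8 were lower and 3 higher, where 1070 of all 15546 genes were lower and 835 higher. LDHA, which converts pyruvate to lactate, led them at 1262, 783 and 783 CPM against 1520, 915 and 947 CPM (0.836-fold, adjusted p = 0.00012), followed by PGAM1, GPI, ALDOA and TPI1, enzymes of glycolysis, at 0.879- to 0.927-fold. Among 27 targets of p53, a list added after values were seen, 5 were higher (background 0.794%) and 0 lower: MDM2, GADD45A, ZMAT3, PMAIP1 and PLK3, with log2 fold changes of 0.15 to 0.26. With the libraries numbered 2 left out, or those numbered 3, 0 p53 targets passed. In those fits 0 and 1 tubulin genes and 1 glycolysis gene each passed.

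Among long noncoding RNAs, NEAT1 and MIR503HG rose. NEAT1, the scaffold of nuclear paraspeckles, stood at 711, 1349 and 1274 CPM in S545A and 512, 1062 and 1005 CPM in control (1.31-fold, log2 0.38 ± 0.03, SE, adjusted p = 3.37e-05). MIR503HG, the host transcript of miR-503, stood at 51.6, 88.9 and 88.1 CPM against 35.7, 64.9 and 65.0 CPM (log2 0.47 ± 0.04, SE, adjusted p = 5.82e-05). Each S545A library exceeded the control of its number, and the groups overlapped for both. MALAT1, another abundant nuclear RNA, stood at 529, 879 and 1031 CPM against 355, 780 and 745 CPM and did not pass in the 6-library edgeR fit with the block (log2 0.40, adjusted p = 0.24). It passed with the block in DESeq2 (adjusted p = 2.79e-06), limma-voom (0.012), limma on quantile-normalized values (0.018), edgeR without a filter, with libraries 2 and 3 summed, and without the libraries numbered 1 or those numbered 2. It did not pass without those numbered 3 (adjusted p = 0.42) or in the 12-library block. The summed level of 12 nuclear and small structured RNAs was 1320, 2340 and 2364 CPM in S545A and 937, 1953 and 1806 CPM in control. This list was added after values were seen, and the sum was mostly NEAT1 and MALAT1. It was higher in S545A in each pair and higher in libraries 2 and 3 than in library 1 of each group. The members did not move together. Of 8 tested with the block, 1 was called higher and 1 lower (background 0.794% and 1.75%), with a median log2 fold change of -0.28. The median log2 ratios in pairs 1, 2 and 3 were -0.37, -0.40 and 0.36. The part of these RNAs in the other differences was not tested.

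Genes of the GAG chains themselves showed few calls. Of 22 enzymes of the linker and heparan sulfate tested and 13 of chondroitin sulfate, 0 passed with the block. At an unadjusted p under 0.05 in that edgeR fit, 1 heparan sulfate gene was higher and 6 lower, and 1 chondroitin sulfate gene was higher and 2 lower, where 17.5% of all genes tested had such a p. GLCE, the epimerase that makes iduronic acid, was at 21.2, 21.3 and 19.7 CPM against 24.7, 22.4 and 23.4 CPM, with no overlap (unadjusted p = 0.096 without pairs, adjusted p = 0.13 with the block). Of 16 proteoglycan core genes, VCAN was lower and 0 were higher (background 1.75% and 0.794%). VCAN, the large chondroitin sulfate proteoglycan versican, stood at 35.3, 14.3 and 16.5 CPM against 55.9, 20.3 and 22.4 CPM (0.681-fold, adjusted p = 0.00029). SDC4, a syndecan of the cell surface, stood at 122, 124 and 121 CPM against 105, 118 and 117 CPM, with no overlap, and did not pass (adjusted p = 0.16 with the block).

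**Figure D5:**
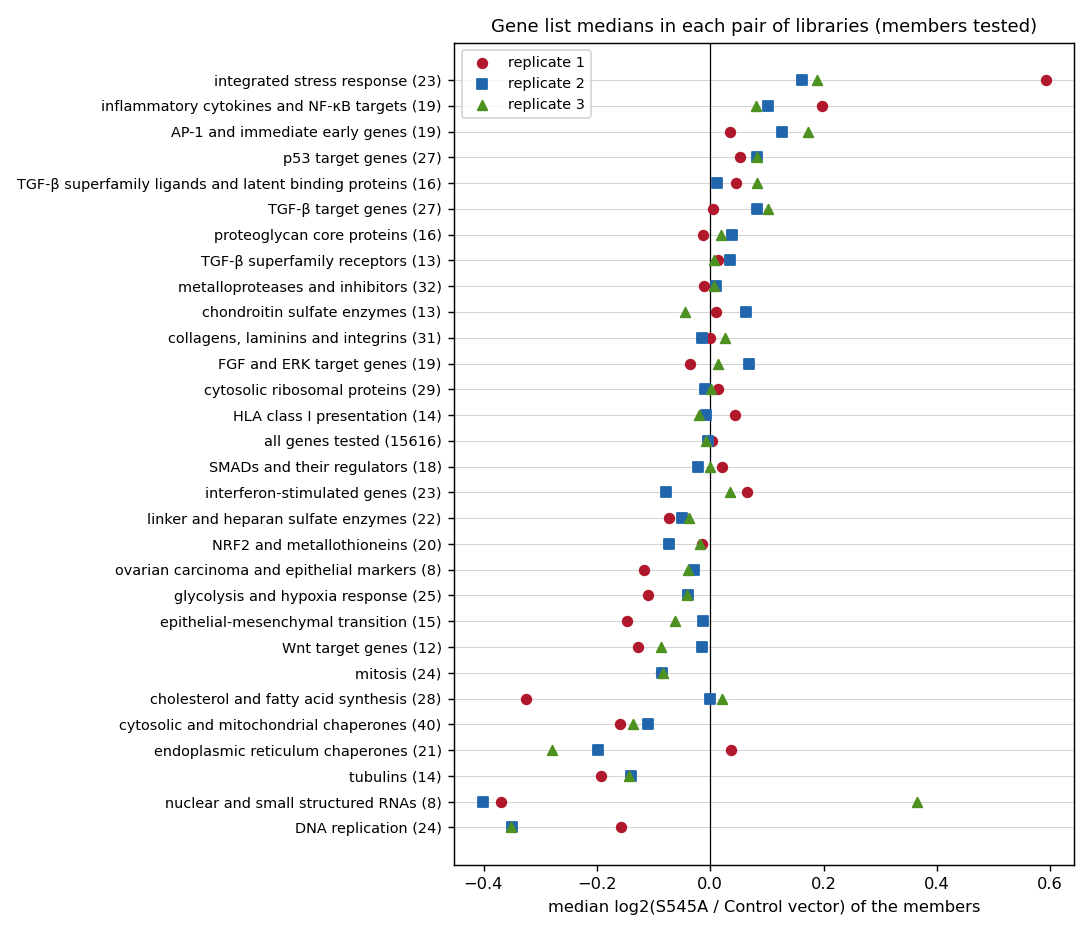
Median log2 ratio of S545A to the control vector library of the same number (x axis, on CPM + 0.5) over the tested members of each gene list (number in brackets), 1 symbol for each pair. The DNA replication, tubulin and cytosolic chaperone medians lie below 0 and the integrated stress response median above 0 in each pair, while the cholesterol and endoplasmic reticulum medians differ between pair 1 and the others.

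Of the 27 gene lists, 14 held at least 1 call and 13 held 0. Lists with 0 calls in the blocked edgeR fit included Wnt targets, interferon-stimulated genes, class I HLA presentation, inflammatory cytokines, epithelial-mesenchymal transition genes and cytosolic ribosomal proteins. At an unadjusted p under 0.05 with the block, which 17.5% of all genes had, these held 2 of 12, 6 of 23, 2 of 14, 6 of 19, 1 of 15 and 1 of 29 genes. Ribosomal proteins had a median log2 fold change of 0.00 over 29 genes. Genes of cholesterol and fatty acid synthesis had 25 of 28 members lower in pair 1 (median log2 ratio -0.32) but 13 of 28 in each of pairs 2 and 3, and 0 calls (6 at an unadjusted p under 0.05). Over the 27 lists, 50 of 492 different genes tested were called, 16 higher and 34 lower. That is 10.2%, against 2.54% of all genes tested. The lists were chosen with earlier results of these data known, so this share is not a test of them. TXNRD1, an NRF2 target, was lower without overlap (0.920-fold, adjusted p = 0.023). Of 20 NRF2 and metallothionein genes tested with the block, 1 was called lower and 0 higher (background 1.75% and 0.794%). That list held 0 calls with the block in DESeq2 and in limma on quantile-normalized values. It also held 0 with libraries 2 and 3 summed, without the libraries numbered 2, and in the 12-library block.

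Genes chosen by the smallest unadjusted p in the fit without pairs, with groups that did not overlap, were mostly of low level. Among the 12 higher, C11orf68 stood at 145, 152 and 152 CPM against 128, 131 and 130 CPM (log2 fold change 0.20 ± 0.07, SE). SLC7A7, a subunit of a transporter of cationic amino acids, stood at 2.25, 2.89 and 2.49 CPM against 1.45, 1.65 and 1.80 CPM (log2 fold change 0.64 ± 0.21). ZSCAN21, SCAND2P, TNFSF12, ACP7, IGF2BP2-AS1, SLC22A18AS, KRTCAP2, TSNAX and STK32C were also among them.

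Among the 12 lower, WIPF1, a regulator of actin assembly, had the highest level, at 41.1, 40.9 and 41.7 CPM against 50.3, 45.5 and 48.0 CPM (log2 fold change -0.22 ± 0.08, SE). MLF1 had a log2 fold change of -0.25 ± 0.10. PALM2 had the smallest p of all 24 genes (log2 fold change -1.10 ± 0.30, unadjusted p = 0.0034), at 0.969, 0.833 and 0.683 CPM against 1.59, 1.93 and 1.80 CPM, and overlaps PALM2-AKAP2. ISL1, a homeodomain transcription factor gene, ADGRB3, an adhesion receptor gene, FAM110B, STON1, ENOX1, AGPAT4-IT1 and the pseudogenes TUBBP1, GOLGA2P5 and PARGP1 were the rest. TNFSF12, TSNAX and STON1 share exons with readthrough genes in the annotation, and ZSCAN21 and SLC22A18AS overlap ZNF3 and SLC22A18, so their reads cannot be fully told apart. With the block, ZSCAN21, C11orf68, SLC22A18AS, PALM2, TUBBP1, WIPF1 and MLF1 passed an adjusted p of 0.05.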

How the data were processed

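RNA from HEYA8 cells was sequenced by the authors from directional libraries. Per the labels, reads were checked with FastQC, trimmed with Trim Galore 0.4.5, aligned with STAR 2.4, handled with SAMtools 1.2 and counted with featureCounts, and the strand setting is not given in the sources used here. The labels name the builds mm10 and GRCm38, but the gene symbols are human and the table's coordinates are those of GRCh38. The authors deposited raw counts per gene, not normalized. All 37 mitochondrial genes hold 0 counts.

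A filter on low values (filterByExpr, minimum count 10) and TMM scaling were applied to these counts. The test was the robust quasi-likelihood test of edgeR 4.0.16 in R 4.3.3, in 1 model of 4 groups and 12 libraries, with Benjamini-Hochberg adjustment over all genes tested. Because the labels name no shared culture or day, the pairing rests on the data: deviations from the group means correlated between same-numbered libraries (0.69, 0.41 and 0.41, which are not independent, as deviations in a group sum to 0), and crossed pairs of libraries 2 and 3 gave 0.39 and 0.40. These values set library 1 apart and do not settle how libraries 2 and 3 pair. The fit with the replicate number as a block, in the 6 libraries, is given beside the first. Nothing says that replicates came from separate cultures, so p-values may measure technical spread only. Alternatives used DESeq2 1.42.0 and limma 3.58.1. The fits were also run on simulated counts, drawn as independent libraries. As pairs 2 and 3 here are near copies, those runs cannot vouch for the blocked calls.

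Genes were named by rule: 8 TGF-β receptor, ligand and TIMP genes, the 12 higher and 12 lower genes with the smallest unadjusted p among those with a mean of at least 1 CPM and groups that did not overlap, at most 3 members of each list, and at most 5 genes called in an alternative. The members and the 27 lists were chosen with earlier results of these data known, and a further 4 lists after values were seen. CCN1 and CCN2 were matched to CYR61 and CTGF. The ± values are standard errors from the edgeR fits and include the fitted spread between libraries. Limits cover counting error only, and 3 counts correspond to 0.103 to 0.148 CPM in the 6 libraries. Promoters are from RefSeq, matched by symbol. One gene that the rule would name is not reported here.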

Additional observations from a re-analysis of the deposited data

How the results depend on the processing

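The count of 0 genes at an adjusted p under 0.05 without pairs was also given by DESeq2, limma-voom, limma on quantile-normalized values, RLE factors, library size only, both filters, the 2 groups alone, libraries 2 and 3 summed, control libraries 2 and 3 left out, and each library left out (range 0 to 0). The replicate block gave 397. The 168 genes at an unadjusted p under 0.05 became 111 with DESeq2, 488 without a filter, 408 with the 2 groups alone, 2732 with the replicate block, 69 with libraries 2 and 3 summed, 599 without control libraries 2 and 3, and 104 to 429 with 1 library left out. Of the list genes, 2 had an unadjusted p under 0.05, but 152 with the replicate block, 21 without control libraries 2 and 3, and 2 to 16 with 1 library left out. Genes with groups that did not overlap rose from 1417 to 3386 with libraries 2 and 3 summed, where 2 values stand against 2.

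The TGFBR3 log2 fold change of 1.60 passed an unadjusted p of 0.05 with limma-voom (2.403) and quantile normalization (2.36), and ran from 1.06 to 1.97 with 1 library left out. It was 2.06 with the replicate block, and DESeq2 without pairs gave no p for it. The 5.08 without control libraries 2 and 3 is no test, as they were left out for this gene's level; for the other values with them left out, the lone control library is assumed to vary like the other groups. TIMP3 ran from 0.045 to 0.30 with 1 library left out and was -0.11 without control libraries 2 and 3. Signs near 0 turned for TGFB1 (0.0059 by library size, 0.0065 by quantile normalization, -0.044 to 0.053 with 1 library left out), TGFBR1 (-0.0043 without a filter, -0.013 to 0.031 with 1 library left out), TGFBR2 (-0.00084 without a filter, -0.0058 summed, -0.17 without control libraries 2 and 3, -0.059 to 0.11 with 1 library left out) and TIMP2 (-0.077 to 0.15 with 1 library left out). In the fit without pairs MCM4 ran from -0.84 to 0.0044 with 1 library left out, the last without control replicate 1.

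With the replicate block, alternatives chosen after seeing the data gave 83 calls with DESeq2, 185 with quantile normalization, 887 without a filter, 0 in the 12-library model, 23 without replicate 2, 42 without replicate 3 and 1905 without replicate 1, where each fit keeps 1 residual degree of freedom. The 397 gave 312 with limma-voom, 408 with RLE factors, 351 by library size, 376 with at least 10 counts in every library and 281 with libraries 2 and 3 summed. The causes were not tested. Depth was similar across the 6 libraries and limits genes below about 1 CPM.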
